A study of Mus musculus with 4 samples.

Results

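Genes that make, sense or break down nucleosides, most of them around adenosine, were followed in tumor-associated macrophages (TAMs). They were chosen on their place in the pathway and on the contrast described here, with earlier results of these libraries known, so their differences between the groups are given as a description and not as a test. The 10 genes, Entpd1, Nt5e, Cd38, Adora2a, Adora2b, Adora3, Ada, Pnp, Upp1 and Cda, stood among 16739 genes with a value in at least 1 library. A value in every library was found for 9 of the 10, and Cda was listed in none of the 4 tables and was taken as 0.

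The RNA came from CD45+CD11b+F4/80+ cells sorted on day 16 from subcutaneous B16-F10 melanomas, a transplanted mouse melanoma line, grown in C57BL/6 mice of 6 to 8 weeks of age. WT mice gave 2 libraries, and the other 2 carried the label Trim24-/- and are called Trim24-deficient or knockout-labelled here. In the latter, Trim24, an E3 ubiquitin ligase, was floxed on both alleles and deleted by Cre under the lysozyme M promoter, which is active in macrophages and also in neutrophils and other myeloid cells. Both groups carried the same tumor line and received no other treatment in the labels. These cells were profiled to ask how loss of Trim24 changes the program of macrophages inside a tumor.

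The libraries held between 4476122 and 5172407 expected counts. Trim24 itself was listed at 28.8 and 10.2 counts in the WT libraries and at 16.1 and 2 counts in those labelled Trim24-deficient, so that the groups overlapped, and whether the deleted exon fell in the counted part of the transcript is not given. Xist, a transcript of the inactive X chromosome, was 39.7-fold higher in the knockout-labelled libraries. Ddx3y, on the Y chromosome, fell by 7.63 on the log2 scale. These transcripts differed between the groups although the study's methods describe the mice of the tumor model as sex-matched. Sex and the genotype label therefore cannot be told apart in any difference below. The defining macrophage markers were high, and none of the 11 was at 0. Their sum was 18801 and 16733 CPM (counts scaled to the TMM-scaled total of each library) in WT. In the knockout-labelled libraries the sum was 19891 and 20374 CPM, so the groups did not overlap on this scale. Of the 11 markers, 6 had both knockout-labelled values above both WT values and 0 had both below. Over all genes tested, 21.5% lay above in this way and 23% below. The log2 ratio of the sums was 0.18, and it was 0.03 with library totals without TMM. In bulk RNA, fewer cells of a type and less RNA per cell cannot be told apart.

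As background, ATP that leaves stressed cells is cut to AMP at the cell surface by the enzyme CD39, which Entpd1 encodes, and AMP is turned into adenosine by CD73, which Nt5e encodes. CD38 consumes NAD and opens another route towards AMP. Adenosine then acts on receptors encoded by Adora1, Adora2a, Adora2b and Adora3, is deaminated to inosine by Ada, and inosine is split by purine nucleoside phosphorylase, Pnp. On the pyrimidine side, Cda deaminates cytidine to uridine, and Upp1, uridine phosphorylase, splits uridine into uracil and a ribose phosphate that cells can burn for energy. Adenosine is known in tumors for restraining T cells and for shaping macrophages.

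Upp1, Adora3 and Cd38 showed the largest differences of the set, and all 3 were higher in the knockout-labelled pair. The pyrimidine enzyme Upp1 was 8.85-fold higher, Adora3 6.52-fold and Cd38 3.23-fold. Adora2b was 1.99-fold higher, and Ada, Entpd1 and Pnp were 1.54-, 1.36- and 1.33-fold higher. Nt5e and Adora2a were close to the detection limit in every library, and their groups overlapped. For Adora3 the size rested on how reads were divided with an overlapping gene, as given below.

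**Figure D1:**
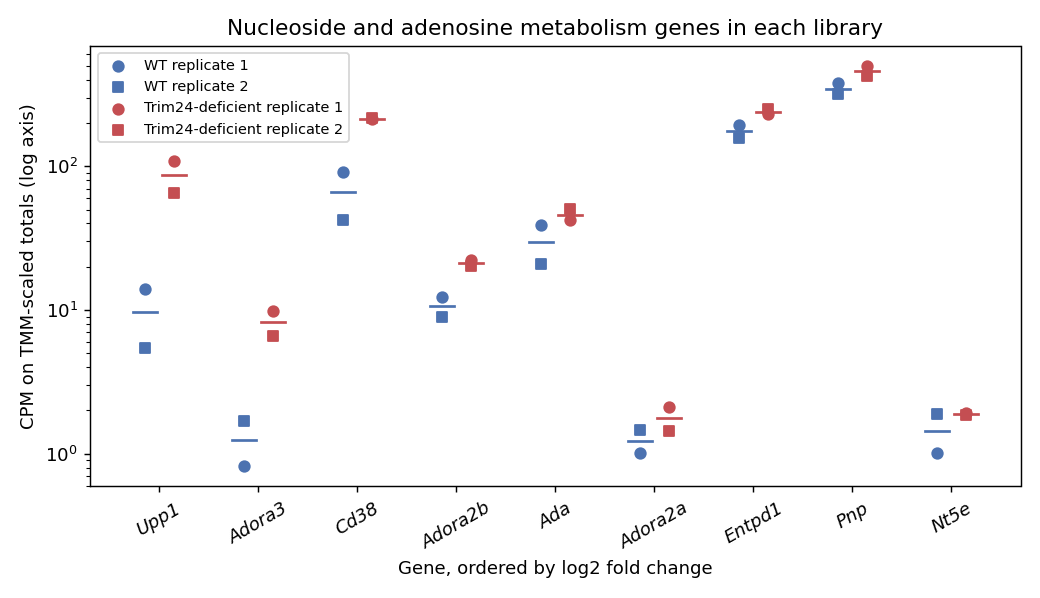
CPM on TMM-scaled totals (log axis) of the 9 genes with a value, in each library. Points are single libraries and bars are the means of 2 libraries. The 2 red points lie above the 2 blue points for every gene except Adora2a and Nt5e.

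The promoters of the 3 genes with the largest differences are shown to place them in the genome and to let their starts be compared. The windows run from 250 bases before to 50 bases after the annotated start and were taken from RefSeq (GRCm38.p6), all 3 on the plus strand and written 5′ to 3′. Upp1 has 3 annotated starts and its most upstream one is shown, at chr11:9117758-9118057. The window of Adora3 is at chr3:105904171-105904470, inside the interval of the gene Tmigd3, and that of Cd38 is at chr5:43868559-43868858. Capitals mark matches to any of the 4 motifs named after the sequences.
Upp1: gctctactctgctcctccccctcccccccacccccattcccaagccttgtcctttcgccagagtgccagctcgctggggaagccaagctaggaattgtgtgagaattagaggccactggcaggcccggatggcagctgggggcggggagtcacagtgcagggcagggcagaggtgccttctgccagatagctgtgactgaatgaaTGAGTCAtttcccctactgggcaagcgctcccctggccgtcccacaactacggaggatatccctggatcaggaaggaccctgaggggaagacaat
Adora3: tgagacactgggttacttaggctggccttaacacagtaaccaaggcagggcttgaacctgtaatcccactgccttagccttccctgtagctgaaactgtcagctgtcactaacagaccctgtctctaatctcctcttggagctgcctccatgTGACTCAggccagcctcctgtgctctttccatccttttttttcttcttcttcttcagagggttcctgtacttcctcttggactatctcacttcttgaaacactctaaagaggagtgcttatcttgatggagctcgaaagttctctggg
Cd38: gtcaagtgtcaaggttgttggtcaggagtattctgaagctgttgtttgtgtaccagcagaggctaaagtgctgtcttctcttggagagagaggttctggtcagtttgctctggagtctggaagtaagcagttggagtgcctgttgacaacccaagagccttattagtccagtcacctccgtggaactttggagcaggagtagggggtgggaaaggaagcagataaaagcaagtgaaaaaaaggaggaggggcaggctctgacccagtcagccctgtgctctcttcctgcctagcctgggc

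The motifs searched on both strands were TTCNNNNGAA and TTCNNNGAA, letters of the kind that STAT factors bind, TGANTCA, the AP-1 motif, and ACGTG, the core of the hypoxia response element. The first 2 can overlap each other where a spacing fits both, and none of the 4 contains another. The AP-1 letters stood 45 bases before the upstream start of Upp1 and 98 bases before the start of Adora3, and the Cd38 window held none of the 4 motifs. The second start of Upp1 shares most of its window with the first and also held ACGTG, 34 bases after the start. A window was found for 9 of the 10 genes, with 12 windows in all. TTCNNNGAA was found in that of Ada, 90 bases before its start, and TTCNNNNGAA was found in 0 of the 12 windows. Over all 32851 windows of this length, TGANTCA was in 7.81%, TTCNNNGAA in 8.3%, TTCNNNNGAA in 6.95% and ACGTG in 19.6%. A match describes these letters only and says nothing of binding in these cells.

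The pyrimidine enzymes came at the extremes of the set. Upp1 (chr11:9118008-9136170) was at 14.1 and 5.42 CPM in WT and at 108 and 65.5 CPM in the knockout-labelled libraries. Its lower Trim24-deficient value was thus well above its higher WT value, and the groups did not overlap. The mean was 9.78 ± 6.16 CPM (SD, n = 2) in WT and 87 ± 30.3 CPM (SD, n = 2) in the other group. The log2 fold change from edgeR was 3.15 ± 0.40 (SE). Upp1 was the 1 gene of the set past a fold of 1.5 and a false discovery rate of 0.05 in edgeR. Over all 11302 genes tested, 0.292% were called higher and 0.0796% lower by that rule, and nothing is read from this share, since the gene was chosen on this contrast. The Upp1 value depended on WT replicate 1, without which the log2 fold change was 4.01, and on WT replicate 2, without which it was 2.62. The call was lost with robust dispersion estimates and with limma on FPKM, at log2 fold changes of 2.94 to 3.15.

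Upp1 was free of the read sharing that touches other genes of the set, since its expected counts of 70, 26, 509 and 319 were whole numbers and no other RefSeq gene overlaps it. Upp2, its paralog, was listed in none of the 4 tables. Cda, which supplies uridine from cytidine, was likewise in none. The tables list only genes above 0, so no upper limit is given for either.

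Among the surface enzymes, Cd38 differed most. Cd38 (chr5:43868809-43912374) was at 90.9 and 42.1 CPM in WT and at 213 and 216 CPM in the knockout-labelled libraries. The latter pair lay within a few CPM of each other and above both WT values, while the WT libraries differed from each other by more than their own lower value. The log2 fold change was 1.69 ± 0.31 (SE). It was 1.24 without WT replicate 2 and 2.37 without WT replicate 1. The expected counts of Cd38 were fractional in all 4 libraries and RefSeq places Gm16015, which is listed in none of the 4 tables, inside its interval, so how reads were divided there is uncertain. Cd38 did not pass both cut-offs in edgeR, but did so in 6 of 17 alternatives, DESeq2 among them.

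Entpd1 (chr19:40612366-40741602), which starts the breakdown of extracellular ATP, was at 194 and 158 CPM in WT and at 230 and 250 CPM in the knockout-labelled libraries. The groups did not overlap, but the gap between them was of the size of the gap between the WT libraries, and the log2 fold change was 0.45 ± 0.20 (SE). Nt5e, the enzyme of the next step, had 5 and 9 counts in WT and 9 and 9 counts in the other group. It did not pass the filter on low counts, and a fit with no such filter put its log2 fold change at 0.39 ± 0.73 (SE), a difference that these counts cannot resolve. On the FPKM scale, which is per transcript length, Entpd1 stood 161-fold and 71-fold above Nt5e in the WT libraries and 101-fold and 114-fold above it in the others. Transcripts for the first step of adenosine production were thus abundant in every library, and those for the second step were scarce in every library.

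The adenosine receptors were led by Adora2b in all 4 libraries. Adora2b (chr11:62248984-62266452), the low-affinity receptor that raises cyclic AMP, was at 12.3 and 8.96 CPM in WT and at 22.2 and 20.3 CPM in the knockout-labelled libraries. Both of the latter values were above both WT values, and the log2 fold change was 0.99 ± 0.28 (SE). Adora2a, the high-affinity receptor of the same signaling class, had 5 and 7 counts in WT and 10 and 7 counts in the other group. Its groups overlapped, and the fit without the filter gave 0.53 ± 0.76 (SE) on the log2 scale.

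On the FPKM scale Adora2b supplied 90.1% and 79.3% of the adenosine receptor transcripts in WT and 70.3% and 76.8% in the knockout-labelled libraries. Adora3 supplied 4.6% and 11.6% in WT and 24.1% and 19.3% in the others, and Adora2a between 3.85% and 9.13% in all. The sum over the 4 receptor genes was 7.61 and 6.57 FPKM in WT and 16.3 and 13.5 FPKM in the knockout-labelled libraries. The pooled receptor level therefore did not overlap between the groups, and Adora2b made up most of it in each library. Adora1 was listed in 1 library only, with 3 counts in Trim24-deficient replicate 1.

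**Figure D2:**
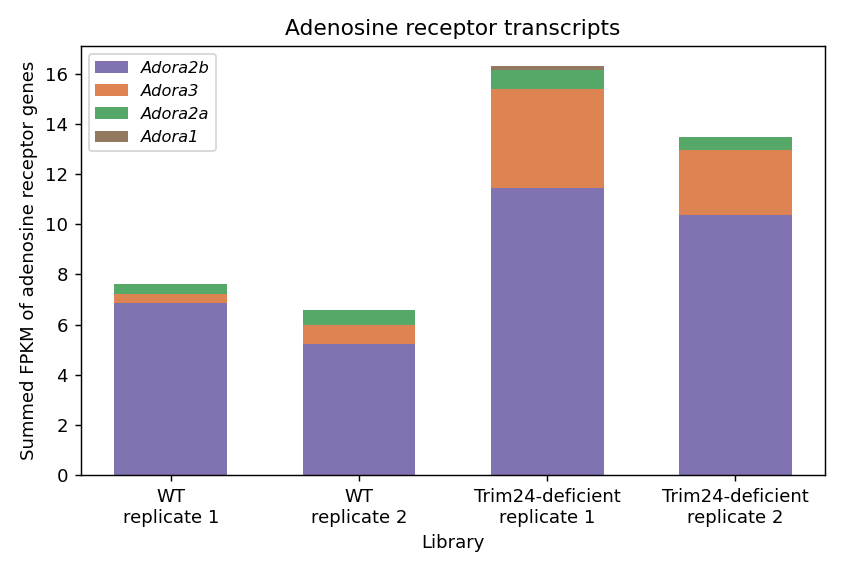
Stacked FPKM of the 4 adenosine receptor genes in each library. Adora2b fills most of every bar, and the summed level is 6.57 and 7.61 FPKM in WT against 13.5 and 16.3 FPKM in the knockout-labelled libraries.

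Adora3 (chr3:105904421-105908928), a receptor that lowers cyclic AMP, was at 0.816 and 1.68 CPM in WT and at 9.8 and 6.62 CPM in the knockout-labelled libraries. The groups did not overlap, and the log2 fold change was 2.70 ± 0.55 (SE). Its expected counts were few, 4.04 and 8.08 in WT and 46 and 32.2 in the other group, and were fractional in all 4 libraries, as RSEM gives where reads fit more than 1 gene. Tmigd3 overlaps Adora3 in the annotation, and its expected counts were 15.7 and 11.5 in WT and 0 in both libraries labelled Trim24-deficient. Summed over both genes, the locus had 19.7 and 19.6 counts in WT and 46 and 32.2 in the others. That is 3.98 and 4.08 CPM against 9.8 and 6.62 CPM, still without overlap. The log2 fold change of the sum was 0.99 ± 0.41 (SE), a 1.99-fold difference in place of 6.52-fold. The sum was formed after the values had been seen, and whether the transcript in the WT cells was that of Adora3 or of Tmigd3 cannot be told apart from gene totals. The share of Adora3 among the receptors carries the same limit.

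**Figure D3:**
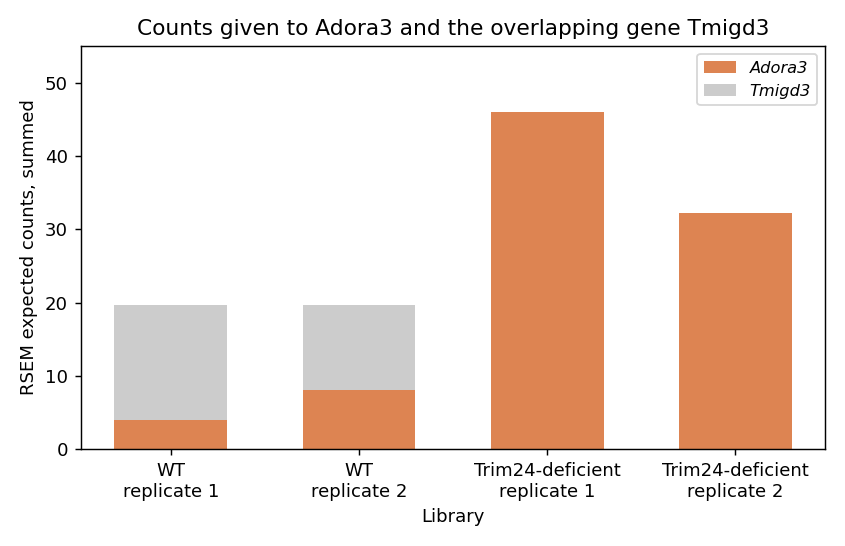
RSEM expected counts of Adora3 and of the overlapping gene Tmigd3, stacked for each library. The WT bars reach 19.7 and 19.6 and are mostly Tmigd3, and the Trim24-deficient bars reach 46 and 32.2 and are all Adora3.

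Ada and Pnp, which remove adenosine and inosine, were higher in the knockout-labelled libraries without passing both cut-offs. Ada (chr2:163726571-163750239) was at 38.8 and 21 CPM in WT and at 42 and 50.3 CPM in the knockout-labelled libraries. The lower Trim24-deficient value was only just above the higher WT value, and the log2 fold change of 0.62 ± 0.28 (SE) moved to 1.15 without WT replicate 1 and to 0.25 without WT replicate 2. Adk, the kinase that returns adenosine to AMP, overlapped between the groups, at 46 and 35.8 CPM in WT and 46.4 and 42.7 CPM in the others. On the FPKM scale the ratio of Adk to Ada was 1.1 and 1.59 in WT and 1.03 and 0.79 in the knockout-labelled libraries, so the transcript for the kinase exceeded that for the deaminase in all but 1 library.

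Pnp (chr14:50944303-50953412) had the highest level of the set and the smallest difference of the 7 genes tested. It was at 378 and 316 CPM in WT and at 499 and 423 CPM in the knockout-labelled libraries, with a log2 fold change of 0.41 ± 0.21 (SE). Its neighbor and near copy Pnp2 was at 21.9 and 13.6 CPM in WT and at 43.9 and 30.7 CPM in the others, with a log2 fold change of 1.06 ± 0.29 (SE) and an edgeR adjusted p of 0.198. Pnp had fractional counts in every library, so how reads were divided between the pair is uncertain. Their sum was 400 and 329 CPM in WT and 543 and 454 CPM in the others, and its log2 fold change was 0.45 ± 0.21 (SE), close to that of Pnp alone.

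Ordered by mean FPKM, Pnp stood first at 135, followed by Entpd1 at 48.2, Cd38 at 44.9, Upp1 at 36.8 and Ada at 22. Adora2b followed at 8.47, then Adora3 at 1.91, Adora2a at 0.575 and Nt5e at 0.46 FPKM. Neighbors from Entpd1 to Ada overlapped in their ranges over the libraries, as did those from Adora3 to Nt5e. Pnp lay above the range of all others, and Adora2b was separated from Ada above and Adora3 below. Upp1 had the widest range, from 4.62 to 82.11 FPKM. In the WT libraries it ranked below Ada, and in Trim24-deficient replicate 1 it ranked just after Pnp. The ratio of Pnp to Upp1 was 11.4 and 24.7 in WT and 1.96 and 2.75 in the knockout-labelled libraries, so the purine and pyrimidine phosphorylase transcripts were much closer in level in the latter.

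Of all 10 genes, 7 were tested by edgeR, and each of these 7 had both Trim24-deficient values above both WT values. Over all genes tested, 21.5% lay that way and 23% lay the opposite way. The median log2 fold change of the 7 was 0.99, against -0.01 for all genes tested. The other genes were Nt5e and Adora2a, whose groups overlapped, and Cda. These figures describe the choice of genes as much as the cells, since the choice was made with the contrast known and Adora3 passed the filter through its Trim24-deficient counts. WT replicate 2 was below WT replicate 1 for 6 of the 7, Adora3 being the exception.

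**Figure D4:**
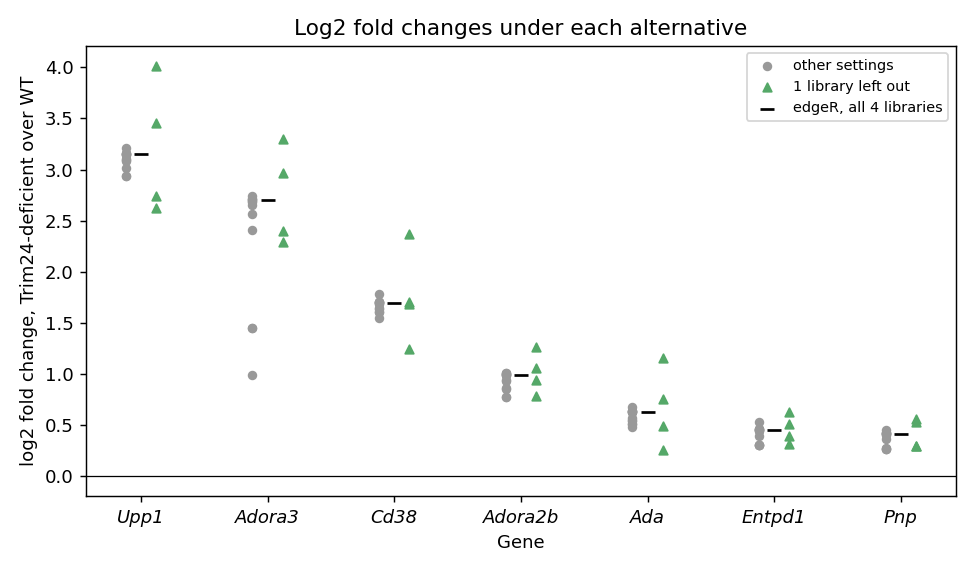
Log2 fold changes of the 7 tested genes with all 4 libraries in edgeR (black bars), in the other settings (grey) and with 1 library left out (green). All lie above 0, Upp1 spans 2.62 to 4.01, and the lowest Adora3 point, 0.99, is the sum with Tmigd3.

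Markers of other cells were summed in each library. The summed level of 10 neutrophil markers, such as S100a8, was 185 and 223 CPM in WT and 288 and 450 CPM in the knockout-labelled libraries. Of the 10, 7 had both of the latter above both WT values and 0 had both below, against 21.5% and 23% of all genes tested. Of the 7, Retnlg, Ly6g and Ltf did not pass the filter on low counts, so they are not among the genes behind those shares. Ltf, for one, had 1 and 3 counts in WT and 4 and 5 in the others. Cxcr2 overlapped, at 63.5 and 83.9 CPM in WT and 42.9 and 76.9 CPM in the others. Ly6g, a defining neutrophil marker, was at 0 in both WT samples, against 2 and 0.918 CPM in the others, Retnlg was at 0 in WT replicate 2, and Camp and Ngp were at 0 in WT replicate 2 and Trim24-deficient replicate 1. The 11 T and NK cell markers summed to 192 and 104 CPM in WT and to 408 and 115 CPM in the others, an overlap, with the highest sum in Trim24-deficient replicate 1. The sums for B and plasma cells, dendritic cells, melanoma, fibroblasts, endothelium and erythroid cells overlapped between the groups, and Pax5 and Tek were at 0 in all 4 libraries. Melanoma markers summed to 585 to 789 CPM. The part of these cells in the nucleoside genes was not tested.

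The rest of the nucleotide pathway was followed in 106 further genes, from ATP release to nucleotide synthesis and NAD. Of these, 84 were tested, none was called higher in edgeR and 1, Prps2, was called lower. Over all genes tested, edgeR called 0.292% higher and 0.0796% lower. DESeq2 called 4 of the wider genes higher and 1 lower, against 132 higher and 24 lower of all 11302 genes tested. In limma on FPKM none of the wider genes was called. At an unadjusted p under 0.05 in edgeR, 10 were higher and 3 lower, against 6.58% and 5.62% of all genes tested. Values of both Trim24-deficient libraries lay above both WT values for 19 genes and below them for 18, and the median log2 fold change was 0.05. The shares of all genes tested that lay above and below in this way were the 21.5% and 23% given before, and the median of all genes was -0.01.

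Bst1, the other NAD-consuming surface enzyme and the neighbor of Cd38, had the largest difference of them in the upward direction. The intervals of Bst1 and Cd38 lie 25340 bases apart on chromosome 5 with 0 RefSeq genes between them. Bst1 was at 58.8 and 40.8 CPM in WT and at 117 and 108 CPM in the knockout-labelled libraries, with a log2 fold change of 1.17 ± 0.22 (SE) and an edgeR adjusted p of 0.0697. It was thus above both WT values in both libraries and just outside the cut-off, which it passed in 5 of 17 alternatives. The FPKM ratio of Cd38 to Bst1 was 1.2 and 0.796 in WT and 1.4 and 1.55 in the others. Their transcripts were thus at like levels. Of the 5 tested genes of the ectonucleotidase and NAD ecto-enzyme group, Bst1 was the 1 gene with an unadjusted p under 0.05. Over all genes tested, 6.58% were higher and 5.62% lower at that p.

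Of the 8 P2 receptor genes and the 5 nucleoside carrier genes tested, 1 each was higher and 0 lower at an unadjusted p under 0.05 in edgeR. Neither passed the adjusted cut-off, and 6.58% of all genes tested were higher and 5.62% lower at that p. Slc28a2, a concentrative carrier that brings purine nucleosides into the cell, was at 151 and 118 CPM in WT and at 364 and 236 CPM in the knockout-labelled libraries, with a log2 fold change of 1.15 ± 0.25 (SE) and an edgeR adjusted p of 0.112. The equilibrative carrier Slc29a1 was at 151 and 139 CPM in WT and 110 and 169 CPM in the others, an overlap. P2rx4, an ATP-gated ion channel, was at 239 and 226 CPM in WT and at 384 and 462 CPM in the others, with 0.86 ± 0.20 (SE) on the log2 scale and an edgeR adjusted p of 0.141. P2ry6, the receptor for UDP and the most abundant of the 10 P2 receptor genes by FPKM, stayed between 294 and 353 CPM in all libraries. The ATP release genes Abcc1 and Slc17a9 had log2 fold changes of -0.40 ± 0.21 and -0.58 ± 0.41 (SE), and the intracellular diphosphatases Entpd5 and Entpd6 of -0.49 ± 0.31 and 0.14 ± 0.24 (SE), with no call.

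Of the synthesis genes, Prps2 alone was called. Prps2, which makes the activated ribose for purines and pyrimidines, fell from 93.4 and 97.9 CPM in WT to 45 and 37.7 CPM in the knockout-labelled libraries. Its log2 fold change was -1.21 ± 0.19 (SE) with an edgeR adjusted p of 0.0371. Its expected counts were fractional in every library (462.55 and 469.82 in WT, 211.34 and 183.3 in the others). How reads were divided there is therefore uncertain. Prps2 is on the X chromosome, so its difference and the sex-linked transcripts cannot be told apart, and the call was lost in limma and without either WT library. Of the 13 genes of purine synthesis, 9 had log2 fold changes below 0, with Paics, the most abundant, at -0.17 ± 0.20 (SE), against 5722 of all 11302 genes tested. Adssl1, an adenylosuccinate synthase named after its values were seen, was at 56.9 and 67.3 CPM in WT and at 79.4 and 100 CPM in the others, with 0.53 ± 0.20 (SE) on the log2 scale and an edgeR adjusted p of 0.337. In pyrimidine and deoxynucleotide synthesis, 5 of 9 were below 0, among them Cad, the enzyme that starts pyrimidine synthesis, at 33.1 and 35 CPM in WT and 22.6 and 22.4 CPM in the others. Its log2 fold change was -0.60 ± 0.21 (SE) with an edgeR adjusted p of 0.293, and Rrm1 of ribonucleotide reductase was at -0.25 ± 0.21 (SE).

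Of the 19 purine salvage and breakdown genes tested, 4 were higher and 0 lower at an unadjusted p under 0.05 in edgeR, and none was called. Over all genes tested, 6.58% were higher and 5.62% lower at that p. Besides Pnp2, these were Samhd1, Xdh and Dguok, named after their values were seen. Samhd1, which breaks down deoxynucleotides, was at 332 and 245 CPM in WT and at 672 and 514 CPM in the knockout-labelled libraries, with a log2 fold change of 1.04 ± 0.24 (SE) and an edgeR adjusted p of 0.137. Xdh, which turns hypoxanthine into xanthine and uric acid, had a log2 fold change of 0.73 ± 0.20 (SE) and an edgeR adjusted p of 0.2, and Dguok, a deoxyguanosine kinase, one of 0.58 ± 0.20 (SE) and 0.3. Of the 11 pyrimidine salvage genes tested, 1, Uckl1, was higher and 1, Tk1, lower at that p, beside the same shares over all genes. Uckl1, named after its values were seen, had a log2 fold change of 0.54 ± 0.19 (SE) and an edgeR adjusted p of 0.283. Tk1, the thymidine kinase of dividing cells, was at 147 and 98.1 CPM in WT and at 69 and 83.6 CPM in the knockout-labelled libraries, with a log2 fold change of -0.69 ± 0.23 (SE) and an edgeR adjusted p of 0.273. Cmpk1, the UMP and CMP kinase, was at 0.30 ± 0.23 (SE) and Aprt, which salvages adenine, at 0.04 ± 0.19 (SE) on the log2 scale. For NAD synthesis, Nampt, the rate-limiting salvage enzyme, was at 334 and 236 CPM in WT and at 527 and 319 CPM in the others, an overlap, and Nmnat1 had a log2 fold change of 0.65 ± 0.38 (SE). Of the 7 NAD synthesis genes tested, 1 was higher and 0 lower at an unadjusted p under 0.05 in edgeR. It was Nadk, named after its values were seen, at 190 and 155 CPM in WT and at 256 and 227 CPM in the others. Its log2 fold change was 0.49 ± 0.20 (SE) with an edgeR adjusted p of 0.373. None of these salvage and NAD genes passed both cut-offs in edgeR.

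**Figure D5:**
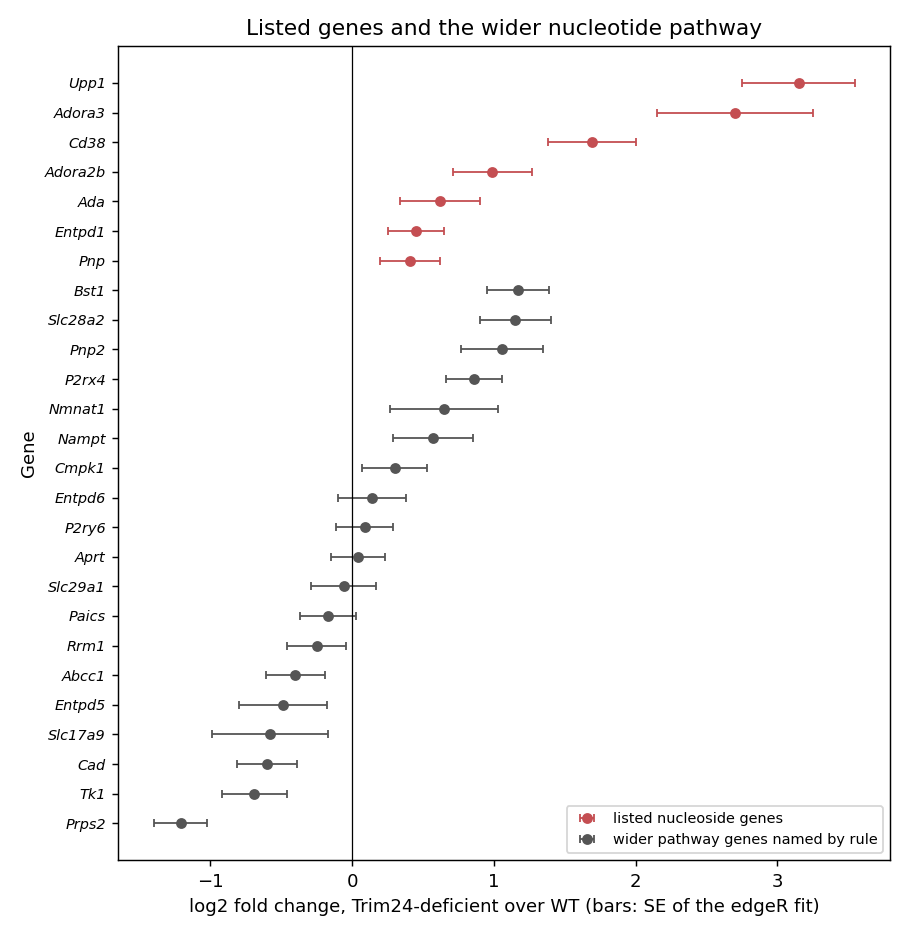
Log2 fold changes, Trim24-deficient over WT, of the 7 tested nucleoside genes (red) and of the wider pathway genes named by rule (grey). Bars are SE of the edgeR fit over 2 and 2 libraries, and the points run from 3.15 for Upp1 to -1.21 for Prps2.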

How the data were processed

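RNA-seq was analysed for 2 WT and 2 Trim24-deficient TAM libraries, grouped by their labels. The labels do not say whether libraries came from separate mice, so p-values measure only the spread between these samples. Per the study's methods and the labels, the authors aligned reads to GRCm38 (mm10) with Bowtie and estimated expected counts and FPKM per gene with RSEM (versions not given in the sources used here). A length in bases per gene is deposited beside them, and the tables leave out genes at 0, which were taken as 0. RefSeq symbols matched 16698 of 16739 gene identifiers, and 77.1% of expected counts were whole numbers. Among the wider genes named here, Prps2, Slc28a2, P2rx4 and Samhd1 had fractional counts in every library, so their read division is uncertain.

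Expected counts were rounded and fitted in edgeR 4.0.16 (R 4.3.3) with filterByExpr, TMM scaling (factors 0.943 to 1.08) and quasi-likelihood tests, two-sided, with Benjamini-Hochberg adjustment over all genes tested. Genes with a fold change above 1.5 and an adjusted p below 0.05 were called. SE is the absolute log2 fold change divided by the square root of F. CPM used TMM-scaled totals, and levels were compared between genes in FPKM only. With 2 against 2 libraries, an exact two-sided permutation test cannot go below 0.333, so none was used for single genes. The code was tested on simulated data.

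The members and lists were chosen with earlier results of these data known. All 10 members were named. From the wider list the rule named each called gene and, per role, the gene of highest mean FPKM and that of largest absolute log2 fold change at a mean log2 CPM of at least 3, plus the paralogs Pnp2 and Upp2. Adk, Tmigd3, Samhd1, Xdh, Dguok, Adssl1, Uckl1 and Nadk were added after their values were seen. Alternatives were DESeq2 1.42.0, other scalings and filters, a robust fit, a replicate block, limma 3.58.1 on log2(FPKM + 1 or 0.1), and each library left out. Removal of a length trend and the summing of Adora3 with Tmigd3 and of Pnp with Pnp2 were added after the data were seen.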

Additional observations from a re-analysis of the deposited data

How the results depend on the processing

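No member changed direction under any alternative run. Library totals without TMM moved the median of all genes to -0.15 on the log2 scale and that of the 7 tested members to 0.85. Of the members, edgeR called 1, DESeq2 3, the replicate block 4, and the robust fit and the limma fits 0. Calls over all genes were 42 in edgeR, 156 in DESeq2, 634 with the replicate block, 23 and 20 in limma with pseudocounts of 1 and 0.1, 0 in limma without a filter (1636 genes at an unadjusted p under 0.05), and 25 to 652 with 1 library left out. Calls in the wider pathway were 1 in edgeR, 5 in DESeq2, 8 with the block, 2 in the robust fit, 0, 0 and 0 in the limma fits (1462, 1434 and 1636 genes overall at an unadjusted p under 0.05), and 0 to 13 with 1 library left out. The cause of these differences was not tested. Same-numbered libraries deviated with a correlation of 0.165 over genes, and no source says that a number marks a shared animal or day, so the block has no basis in the design; it leaves 1 residual degree of freedom. With single libraries, 5 and 6 of the 9 ranks by FPKM were as in the mean for WT replicates 1 and 2, and 7 and 7 for the Trim24-deficient replicates. Of the wider genes, only those named by rule were followed through the alternatives. Among these, changes of sign were seen in 5 genes with log2 fold changes near 0. P2ry6 was at -0.06 without TMM and -0.07 in the limma fits, and from -0.03 to 0.20 with 1 library left out. Entpd6 was at -0.003 without TMM, -0.02, -0.03 and -0.02 in the limma fits and from -0.14 to 0.39 with 1 library left out. Aprt was at -0.11 without TMM, -0.02 with upper-quartile scaling, -0.11 in the limma fits, -0.07 with the length trend removed and from -0.02 to 0.09 with 1 library left out. Slc29a1 ran from -0.40 to 0.22 and Paics from -0.33 to 0.02 with 1 library left out. Depth limits Nt5e, Adora2a and Adora3, which had at most 9, 10 and 46 counts in a library.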
